A study of Mus musculus with 8 samples.

Results

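The width of accessible sites was compared between 4 ATAC-seq libraries from mice carrying Flt3-ITD and 4 libraries from mice without it. A site was a stretch of the genome covered by overlapping peaks, and only sites on chromosomes 1 to 19 that held a peak in all 8 libraries entered. These were 35155 of the 114533 regions formed from all peaks, or 30.7%. A further 946 regions called in every library lay on other sequences and were left out. The value of a site in a library was its summed peak width divided by that library's median over the same sites. The rule that set the libraries and these 35155 sites used no measured difference between genotypes.

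The libraries with Flt3-ITD were 2 of the genotype Flt3-ITD and 2 of the genotype labelled Smc3 fl/del Flt3-ITD, here called Smc3-deleted Flt3-ITD. Those without were 2 control libraries of the genotype Smc3 fl/+ and 2 of the genotype Smc3 del/+. The sample titles mark Flt3-ITD, Smc3-deleted Flt3-ITD and Smc3 del/+ mice as positive for Mx1-Cre, a recombinase that interferon responses switch on, and control mice as negative. All 4 libraries with Flt3-ITD thus came from Cre-positive mice, and of those without it only the Smc3 del/+ pair did. In every group c-Kit+ marrow cells (50000 per sample) were collected 4 weeks after the inducer PIpC, and the labels speak of individual mice, name no age, sex or strain, and do not say which cells had recombined. Titles call the Smc3 allele of the combined genotype heterozygous and the genotype label reads fl/del, so the state of its second allele is not settled. The free-text note on each Flt3-ITD library describes a Smc3 del/+ mouse and the reverse, and grouping here follows the titles. Whether both libraries of a genotype stem from separate mice is not stated, so the p-values cover the spread between libraries, which may be technical.

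Flt3 is a receptor tyrosine kinase of early blood progenitors that is normally switched on by its ligand. The internal tandem duplication lies in the part of the receptor next to the membrane, frees the kinase from the need for ligand, drives signalling through Stat5 and the Ras pathway, and is a frequent lesion of acute myeloid leukaemia. Smc3 is a core subunit of cohesin, the ring that extrudes chromatin loops. In ATAC-seq a transposase inserts adaptors into DNA that is free of nucleosomes, so the width of a peak reports how far insertions run together at a promoter or enhancer, and is a different readout from whether a site is called at all.

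The lists held between 61953 and 80698 peaks, and the read number behind each is unknown. The files are BED intervals on the mm9 mouse build and carry no gene names. Without an mm9 annotation, sites are given by mm9 coordinates only, and nearest genes, promoter content and marker loci of c-Kit+ cells were not analysed here. In marrow fractions a shift in the mix of cell types and a change within cells cannot be told apart.

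Sites open in every library came in a narrow and a wide form. In all 8 libraries the most common width was between 350 and 400 bp, and a broad second group lay around 1100 bp. Of the sites, 27974 (79.6%) had exactly 1 peak in every library. A site was called wide in a library when its widest peak reached 700 bp, a limit chosen after seeing the distribution. Peaks under the limit had median widths of 385 to 391 bp over the 8 libraries, and those at or over it of 1057 to 1090 bp. The same site often changed between forms. No library called 11209 sites (31.9%) wide, all 8 called 537 (1.53%) wide, and the other sites were wide in some libraries and narrow in others. Among sites with 1 peak in every library, 17558 took both forms, with a median width of 1058 bp when wide and 393 bp when narrow. The wide form was longer by at least 100 bp at both ends in 43.4% of them, at the lower coordinate only in 29.3%, at neither end in 0.222% and at the higher coordinate only in the rest.

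**Figure D1:**
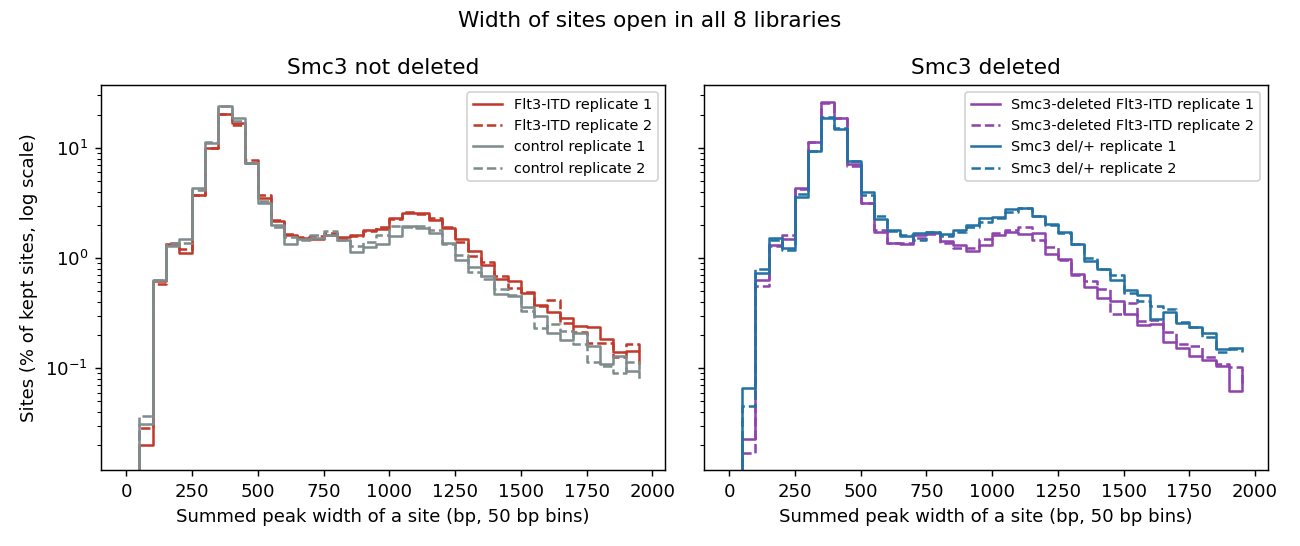
Distribution of summed peak width over the 35155 sites, as the percentage of sites per 50 bp bin on a log scale, with 1 line per library (solid, replicate 1; dashed, replicate 2). The group around 1100 bp held more sites in Flt3-ITD than in control where Smc3 was not deleted, and fewer in Smc3-deleted Flt3-ITD than in Smc3 del/+ where it was deleted. Sites of 2000 bp or more are not drawn.

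The wide form was more frequent with Flt3-ITD where Smc3 was not deleted, and less frequent with Flt3-ITD where it was deleted. Flt3-ITD libraries had 27.1% and 27.3% of sites wide, against 19.9% and 21.0% in control libraries. Smc3-deleted Flt3-ITD libraries had 18.8% and 19.4% wide, against 30.5% and 30.0% in Smc3 del/+ libraries. Neither pair of genotypes overlapped, and the differences were 6.75 and -11.2 percentage points. In the first pair Flt3-ITD and Cre cannot be told apart; in the second both genotypes carry Cre. Over all libraries the opposite shifts left 23.2% ± 4.69 of sites wide with Flt3-ITD and 25.4% ± 5.67 without (SD, n = 4 each), a difference of -2.21 percentage points (exact two-sided permutation p = 0.514, 0.771 after Benjamini-Hochberg adjustment over 18 tests). The same test of whether the Flt3-ITD difference depended on Smc3 deletion gave an exact p of 0.0286, the smallest that 70 assignments allow, and 0.129 after adjustment. The assignments move single libraries, and the 2 libraries of a genotype lay close together. These p-values thus do not measure the spread between genotypes.

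Other measures of width moved alike. Median site width was 434 and 436 bp in Flt3-ITD and 414 and 415 bp in control, and it was 410 and 411 bp in Smc3-deleted Flt3-ITD and 449 and 445 bp in Smc3 del/+. At the 75th percentile, which falls between the narrow and wide forms, Flt3-ITD libraries reached 849 ± 1.41 bp and control libraries 639 ± 25.5 bp (SD, n = 2 each). The Smc3-deleted Flt3-ITD libraries reached 586 ± 14.1 bp there and Smc3 del/+ libraries 918 ± 5.66 bp (SD, n = 2 each). With all libraries together, the median was 422.75 ± 14.2 bp with Flt3-ITD and 430.75 ± 18.8 bp without (SD, n = 4 each), and this difference of -8 bp had an exact permutation p of 0.514. The number of peaks per site was 1.08 on both sides.

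Where Smc3 was deleted, list length and peak score moved in the opposite direction to the wide share. Peaks with the authors' top score of exactly 1 made up 62.6% and 62.2% of peaks in these sites in Smc3-deleted Flt3-ITD, against 39.4% and 40.4% in Smc3 del/+, and the lists held 80698 and 80316 peaks against 61953 and 63401. Where Smc3 was not deleted, the top-score share overlapped, with 51.0% and 48.4% in Flt3-ITD and 53.9% and 48.2% in control, and so did the list lengths, with 67152 and 64218 peaks in Flt3-ITD and 74525 and 64777 in control. Within every list wide peaks held the top score less often than narrow ones, by a margin between 48.2% against 48.5% (Flt3-ITD replicate 2) and 56.3% against 63.9% (Smc3-deleted Flt3-ITD replicate 1). The part of depth in the width shifts was not tested.

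**Figure D2:**
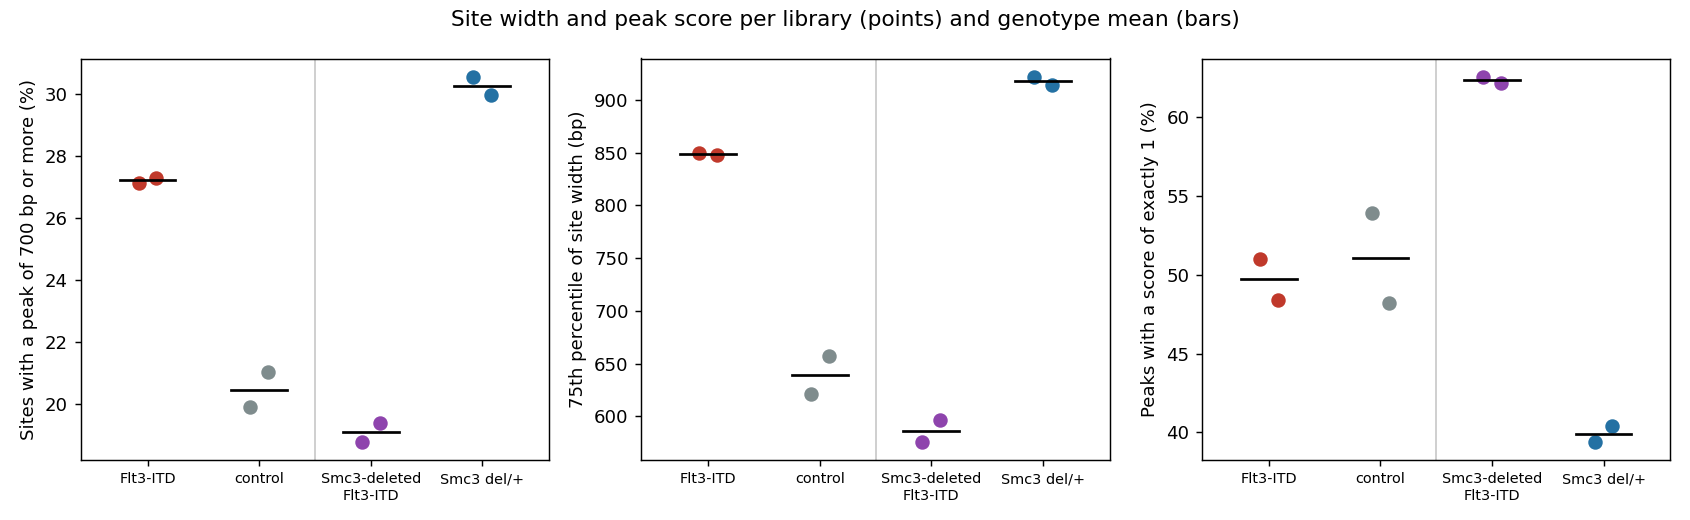
Share of sites with a peak of 700 bp or more, 75th percentile of site width, and share of peaks in these sites with a score of exactly 1, with 1 point per library and a bar at the mean of each genotype. In the first pair of columns Smc3 is not deleted and in the second it is; the axes do not start at 0. Wide sites ran from 18.8% in Smc3-deleted Flt3-ITD to 30.5% in Smc3 del/+.

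No single site differed in width between libraries with and without Flt3-ITD after adjustment. Division by the library median sets the medians equal but leaves the difference in the wide share in place. In sites with a mean width of 517 to 710 bp, the median log2 difference stayed at 0.14 in Flt3-ITD minus control. In Smc3-deleted Flt3-ITD minus Smc3 del/+ it was -0.25 there. These medians had the opposite signs in sites of up to 414 bp, at -0.050 and 0.090. They were -0.0021 and -0.0097 in sites of 414.5 to 516.6 bp, and 0.042 and -0.053 in sites of 710 bp or more. On log2 relative width, limma with Benjamini-Hochberg adjustment called 0 of 35155 sites (0.0%), with a smallest adjusted p of 0.629. At an unadjusted p under 0.05 it passed 1688 sites (4.8%), of which 789 were wider and 899 narrower with Flt3-ITD. The precision for a single site was low: the unadjusted 95% interval of its log2 difference had a median half-width of 0.85. Smaller differences were thus not detectable at a typical site even before adjustment. After adjustment larger ones were missed too: the largest log2 difference of all, 2.83, had a limma adjusted p of 0.629. Fits of Flt3-ITD against control alone and of Smc3-deleted Flt3-ITD against Smc3 del/+ alone also called 0 sites (0.0% each), with 1937 (5.51%) and 2434 (6.92%) at an unadjusted p under 0.05. Dependence of the Flt3-ITD difference on Smc3 deletion was called at 0 sites (0.0%), with 2222 (6.32%) at an unadjusted p under 0.05. For comparison, Smc3 deletion, tested on the same 8 libraries, was called at 0 sites (0.0%), with 1918 (5.46%) at an unadjusted p under 0.05.

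Spread between libraries of the same genotype made up most of the spread of the Flt3-ITD difference. Between the 2 libraries of a genotype, width differed by more than 2-fold at 26.7% of sites in Flt3-ITD, 19.9% in Smc3-deleted Flt3-ITD, 21.5% in control and 29.5% in Smc3 del/+. Means of 4 libraries vary less than single libraries, so the next share is not comparable with these. With 4 libraries a side, 683 sites were more than 2-fold wider with Flt3-ITD and 740 more than 2-fold narrower (4.05% together). Log2 differences over sites had a median of 0.00058 and an SD of 0.46, and the differences between replicates alone account for an SD of 0.44, leaving 7.80% of the variance. That remainder also holds whatever set the genotypes of a side apart.

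Widths of all 4 libraries with Flt3-ITD lay above or below those of all 4 others at 1126 sites (3.2%). Of these separated sites, 556 (1.58%) were wider with Flt3-ITD, by a median of 0.69 on the log2 scale, and 570 (1.62%) narrower, by a median of -0.88. The total was the fifth highest among the 35 ways to divide the libraries into 4 and 4, which gave between 862 and 1483 sites with a median of 977 (exact one-sided permutation p = 0.143; smallest possible 0.0286). Only 3 of these divisions keep the libraries of each genotype together. Smc3 deletion separated 990 sites (2.82%), and the third, in which the combined genotype stands with control and the single genotypes stand together, separated 1483 (4.22%), the highest of all. With raw widths in place of relative ones 1101 sites separated by Flt3-ITD, and the wider share of them was 38.4% in place of 49.4%. In the wide or narrow form, 24 sites were wide in every library that carried Flt3-ITD and narrow in every other, and 54 were the reverse (78 together, 0.222%; exact one-sided permutation p = 0.4). The SD of the log2 difference, taken as a single value, had an exact one-sided permutation p of 0.0571. Without either Smc3-deleted Flt3-ITD library this exact p was 0.200, and without both 0.333. With the Flt3-ITD and Smc3 del/+ labels exchanged, which gives the sides of Smc3 deletion, it was 0.400. Without both control libraries this exact p was 0.0667, the smallest possible when both libraries of a genotype are dropped. It was 0.0571 without either Smc3 del/+ library, 0.0857 without either control library and 0.114 without either Flt3-ITD library.

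**Figure D3:**
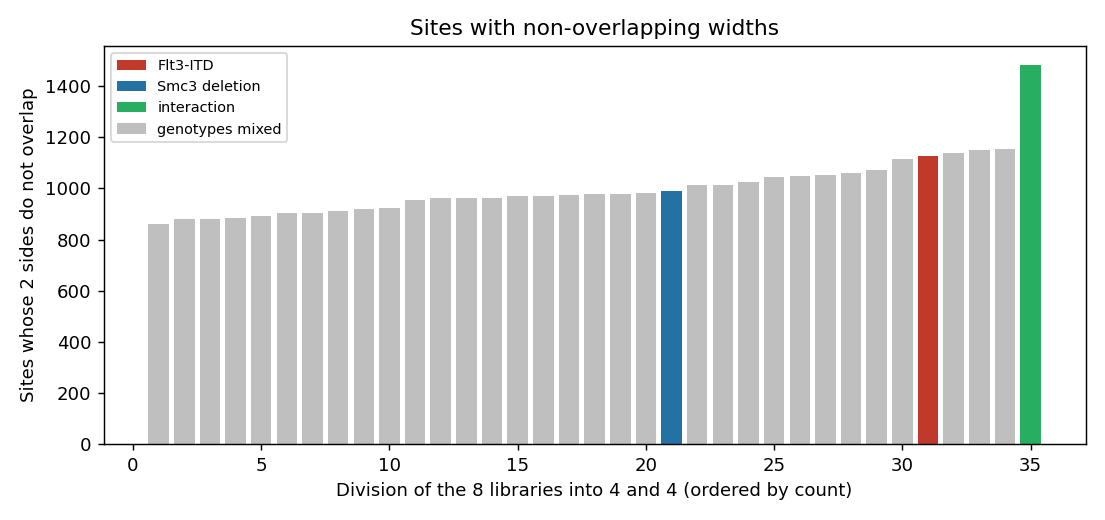
Number of sites whose relative widths do not overlap between the sides (bar height), for each of the 35 divisions of the 8 libraries into 4 and 4, in order of the count. Flt3-ITD gave 1126, Smc3 deletion 990 and the division of combined and control against single genotypes 1483 (marked interaction), and grey bars split the libraries of at least 1 genotype between the sides.

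Likeness of the Flt3-ITD differences of single sites between the Smc3 states was not detectable. The differences of Flt3-ITD minus control and of Smc3-deleted Flt3-ITD minus Smc3 del/+ share no library, and over the 35155 sites their Pearson correlation was -0.0065 and their Spearman correlation -0.012. Sites are not independent replicates and both differences are scaled within library, so these are descriptions. The sign was the same at 49.0% of sites. Beyond the spread between replicates, 6.03% of the variance was left in Flt3-ITD minus control and 10.6% in Smc3-deleted Flt3-ITD minus Smc3 del/+, so even identical underlying differences could give a correlation of only about 0.080. Among the 4066 sites more than 2-fold wider or narrower in Flt3-ITD than in control, it was the same at 49.7%. With sites divided into 4 equal classes by mean width, the Pearson correlation ran from -0.022 in the widest class to 0.047 in the second narrowest.

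Changes of form were then followed from one pair of genotypes to the other. Of the sites, 1389 (3.95%) were wide in both Flt3-ITD libraries and narrow in both control libraries. Smc3-deleted Flt3-ITD libraries called 28.8% and 30.5% of them wide and Smc3 del/+ libraries 47.2% and 46.7%, against 18.8%, 19.4%, 30.5% and 30.0% over all sites in the same 4 libraries. Another 532 sites (1.51%) were narrow in both Flt3-ITD libraries and wide in both control libraries. They were wide at no lower rate in Smc3-deleted Flt3-ITD, with 33.1% and 34.6%, and in Smc3 del/+, with 52.3% and 48.5%. Sites of both kinds were thus wide more often than the average site, whichever way they had moved between Flt3-ITD and control. The choice of sites favours this. Each followed set, here and in the other direction, holds only sites wide in 2 libraries, whereas the average includes the 11209 sites that no library called wide. In the other direction, 467 sites (1.33%) were wide in the Smc3-deleted Flt3-ITD pair and narrow in the Smc3 del/+ pair, and 45.8% and 45.4% of them were wide in Flt3-ITD and 40.5% and 37.9% in control. The 1940 sites (5.52%) with the reverse pattern were wide at 38.8% and 37.9% in Flt3-ITD and 29.9% and 29.8% in control. Over all sites these libraries called 27.1% and 27.3% wide in Flt3-ITD and 19.9% and 21.0% in control.

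**Figure D4:**
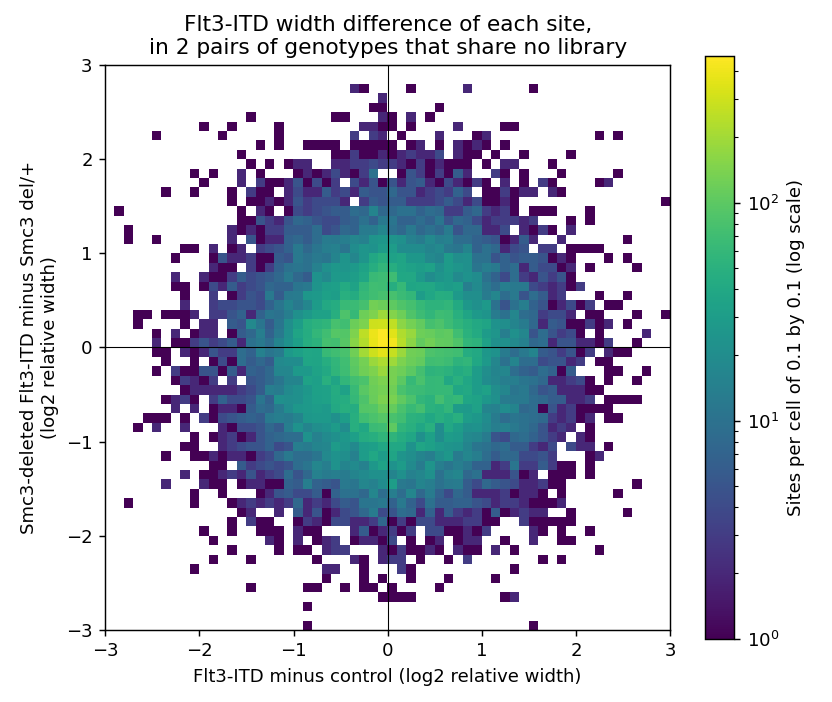
Difference in log2 relative width of each site in Flt3-ITD minus control (x axis) and in Smc3-deleted Flt3-ITD minus Smc3 del/+ (y axis), with colour for the number of sites per cell on a log scale; 6 sites lie outside the axes. The cloud is centred on 0 in both directions and shows no diagonal (Pearson correlation -0.0065).

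On average, width profiles were more alike within a genotype than between genotypes, by a small margin that not every genotype showed. The Pearson correlation of log2 relative width over sites was 0.344 ± 0.0457 for the 4 pairs of the same genotype and 0.319 ± 0.0226 for the 24 pairs of different genotypes (SD; exact one-sided permutation p = 0.00952, the smallest that 105 pairings allow). The replicates correlated at 0.325 in Flt3-ITD, 0.389 in Smc3-deleted Flt3-ITD, 0.373 in control and 0.289 in Smc3 del/+, the last below the mean between genotypes. Among pairs of different genotypes, those that shared the Flt3-ITD state had 0.320 ± 0.0150, those that shared the Smc3 state 0.312 ± 0.0177 and those that shared neither 0.324 ± 0.0323 (SD, 8 pairs each). These means differed by less than their SDs.

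The separated sites were spread over width classes and chromosomes. In the narrowest of the 4 classes of sites by mean width (up to 414 bp), 152 sites (1.73%) were wider and 88 (0.999%) narrower with Flt3-ITD. In the third class (517 to 710 bp), 116 (1.32%) were wider and 188 (2.14%) narrower. After quantile normalization, which gives every library the same distribution, the narrowest class had 122 wider and 117 narrower sites and the third class 130 and 181. Sites with several peaks in some library separated at 3.66% and those with 1 peak in every library at 3.09%, beside 3.2% of all sites. By chromosome the share ran from 2.35% on chromosome 16 to 4.99% on chromosome 18, and median log2 differences from -0.014 on chromosome 15 to 0.0099 on chromosome 4. Of 2036 windows of 1 Mb, the one starting at 108 Mb of chromosome 9 held the most separated sites, 7 of its 52, with 5 wider and 2 narrower.

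The number of peaks, which enters the summed width, and the presence of regions called on one side only were set beside it. Peak number separated the sides at 78 sites (0.222%), with 33 holding more peaks in all 4 libraries with Flt3-ITD and 45 fewer. Wider sites had a mean of 1.11 peaks with Flt3-ITD and 1.04 without, narrower sites 1.05 and 1.16, and 79.0% and 74.4% of them had 1 peak in every library, against 79.6% of all sites. On the autosomes 975 regions had a peak in each library that carried Flt3-ITD and in no other, and 10 of the 556 wider sites (1.80%) and 6 of the 570 narrower sites (1.05%) lay within 5 kb of one, against 0.868% of all sites. Within 50 kb the counts were 45 (8.09%) and 41 (7.19%), against 7.52% of all sites. Regions called only without Flt3-ITD numbered 1277, and 60 wider sites (10.8%) and 90 narrower sites (15.8%) lay within 50 kb of one, against 11.3% of all sites. At 5 kb the counts were 6 (1.08%) and 7 (1.23%), against 1.15%.

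Since no site passed adjustment, the rule for named sites gave none, and 14 sites are described that were chosen after their values were seen, as the most different of the 1126 separated sites. They are labelled W1 to W6 (wider with Flt3-ITD) and N1 to N8 (narrower), and their widths are summed peak widths in bp. That their sides do not overlap is how they were chosen. They rest on the titles. With the Flt3-ITD and Smc3 del/+ labels exchanged, which gives the sides of Smc3 deletion, the 14 log2 differences lay between -0.88 and 0.67. Because the sites were chosen on the Flt3-ITD sides, small values on other sides largely follow from that choice and do not check the titles.

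Site W1, at chr13:55311196-55314950, had the largest difference. Its single peak spanned 1302 and 2026 bp in Flt3-ITD and 3530 and 3635 bp in Smc3-deleted Flt3-ITD, against 363 and 283 bp in control and 367 and 378 bp in Smc3 del/+. The 4 libraries without Flt3-ITD held the narrow form, and the combined genotype had the widest peaks, beyond both Flt3-ITD libraries. The log2 difference was 2.83 with an SE of 0.42 (limma adjusted p = 0.629), made of 2.27 where Smc3 was not deleted and 3.39 where it was.

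At W2 (chr2:165713536-165715400) the single peak measured 1823 and 1078 bp in Flt3-ITD and 1519 and 1180 bp in Smc3-deleted Flt3-ITD, against 170 and 339 bp in control and 305 and 300 bp in Smc3 del/+. Each library with Flt3-ITD held the wide form and each of the others the narrow one, with a log2 difference of 2.37 and an SE of 0.35 (limma adjusted p = 0.629). W6 (chr1:108523413-108524588) differed likewise, with 1079 and 931 bp in Flt3-ITD and 1106 and 769 bp in Smc3-deleted Flt3-ITD, the last in 2 peaks, against 127 and 273 bp in control and 266 and 336 bp in Smc3 del/+. Its log2 difference was 2.05 with an SE of 0.31 (limma adjusted p = 0.629).

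At W3 (chr15:102075695-102079054) widths were 2498 and 2591 bp in Flt3-ITD and 1973 and 3309 bp in Smc3-deleted Flt3-ITD, against 339 and 723 bp in control and 1187 and 272 bp in Smc3 del/+. Both groups with Flt3-ITD had 1 long peak in each library, whereas the wider library of each group without it had 2 peaks. The log2 difference was 2.29 in each Smc3 state, with an SE of 0.46 overall (limma adjusted p = 0.910). With only the upper 50% of each list by score this was the single site that limma called, with a log2 difference of 3.06 and an adjusted p of 0.0476. Over all its alternatives the adjusted p ran from 0.0476 to 0.998. W4 (chr9:43550578-43553147) and W5 (chr9:94972066-94974200) had log2 differences of 2.16 and 2.14, and at W5 one Smc3 del/+ library reached 907 bp, just under the 974 bp of the narrowest library with Flt3-ITD.

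N7, at chr11:77614249-77617175, had the smallest unadjusted p of all sites and a modest difference. Its 2 peaks together covered 1555 and 1488 bp in Flt3-ITD and 1612 and 1601 bp in Smc3-deleted Flt3-ITD, against 2254 and 2360 bp in control and 2407 and 2831 bp in Smc3 del/+. All libraries held 2 peaks, and those with Flt3-ITD lay between 1488 and 1612 bp. The log2 difference was -0.62 with an SE of 0.078 (limma adjusted p = 0.629), and its p before adjustment by limma across all sites was 1.9e-05. It was -0.26 with the widest single peak, -0.33 with the span and -0.11 with the better-scored 50% of peaks in each list.

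N8 (chr12:112403974-112405267) was narrow in every library with Flt3-ITD and wide in every other. It measured 297 and 381 bp in Flt3-ITD and 195 and 196 bp in Smc3-deleted Flt3-ITD, against 879 and 868 bp in control and 724 and 832 bp in Smc3 del/+. Its log2 difference was -1.66 with an SE of 0.25 (limma adjusted p = 0.629). At N6 (chr17:65953003-65955109) a second peak went with the difference. Each library with Flt3-ITD had 1 peak there, of 350 and 403 bp in Flt3-ITD and 449 and 310 bp in Smc3-deleted Flt3-ITD, and each of the others had 2, which covered 1338 and 1354 bp in control and 1996 and 1322 bp in Smc3 del/+. The log2 difference was -1.96 with an SE of 0.34 (limma adjusted p = 0.903), and it was -0.81 with the better-scored 50% of peaks.

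N3 (chr5:147775014-147776142) and N4 (chr5:147616603-147618558) both lay on chromosome 5. N3 measured 118 and 243 bp in Flt3-ITD and 287 and 117 bp in Smc3-deleted Flt3-ITD, against 1007 and 462 bp in control and 1078 and 966 bp in Smc3 del/+. N4 measured 471 and 232 bp in Flt3-ITD and 308 and 275 bp in Smc3-deleted Flt3-ITD, against 1173 and 1159 bp in control and 2191 and 1020 bp in Smc3 del/+. Their log2 differences were -2.22 and -2.06, with SEs of 0.37 and 0.38 (limma adjusted p = 0.903 and 0.910).

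The remaining narrower sites were less even across libraries. At N1 (chr2:144054041-144057739), the largest difference downward at -2.24, Smc3-deleted Flt3-ITD replicate 1 had 2 peaks of 1307 bp together, whereas the other libraries with Flt3-ITD had 1 peak of 309 to 459 bp and those without covered 1830 to 3340 bp in 2 or 3 peaks. At N2 (chr14:75409609-75411597) Smc3 del/+ replicate 2 had 406 bp, near the 361 bp of Flt3-ITD replicate 1, and the other libraries without Flt3-ITD had 1314 to 1536 bp. N5 (chr11:48897726-48899750) reached 1005 bp in Flt3-ITD replicate 2, against 1253 bp in the narrowest library without Flt3-ITD. Its log2 difference of -2.04 became -0.87 when peaks up to 100 bp apart were merged and -1.33 without both Smc3-deleted Flt3-ITD libraries. The limma adjusted p was 0.910 at each of these 3 sites.

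**Figure D5:**
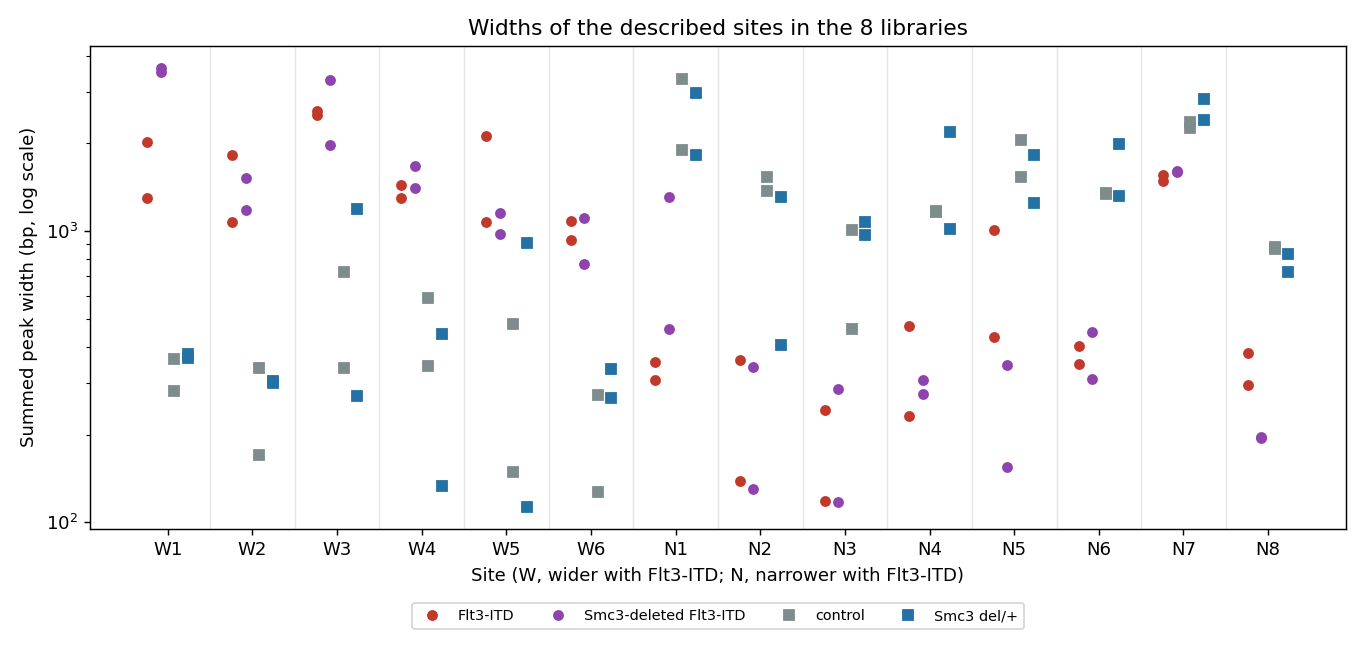
Summed peak width on a log scale at the 14 described sites, with 1 point per library (circles, with Flt3-ITD; squares, without). The sites were chosen so that circles and squares do not overlap; W1 has the widest gap and N7 the tightest circles.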

How the data were processed

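ATAC-seq libraries of 4 genotypes, 2 each, entered as the peak lists the authors deposited, 1 per library. Each list gives intervals in bp and the authors' score per peak (0.99 to 1), with no stated meaning. Reads were aligned with Bowtie to mm9, per the submitters' processing notes. The peak caller, its version and the handling of duplicate reads are not given in the sources. A caller's smoothing and depth can set peak width.

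Of 557040 peaks, 1550 exact repeats within a list were counted once. Peaks overlapping by at least 1 bp were merged, and overlapping peaks of a list were summed. Log2 relative widths were fitted with limma 3.58.1 (R 4.3.3, 2 sides, variance trend, Benjamini-Hochberg over all sites). Single pairs of genotypes, Smc3 deletion and dependence on it were fitted on genotype means. Single values had exact permutation tests over libraries. Named sites had to pass adjusted p under 0.05 without overlap of sides: per direction the 8 largest, 4 of smallest p and 4 with 1 peak throughout. With none passing, the first 6, 2 and 2 of the same orders were described, some of them being the same site. Sites, tests and lists were chosen with earlier results of these data known. Gene lists were not used. Steps were tested on simulated data (scipy 1.17.1, numpy 2.4.6).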

Additional observations from a re-analysis of the deposited data

Results flagged for a closer look

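The Flt3-ITD difference in width had opposite signs in the Smc3 states for 4 measures over the sites, with every library on the stated side. The differences with minus without Flt3-ITD were 20.5 bp where Smc3 was not deleted and -36.5 bp where it was for the median (57 bp apart), 210 and -332 bp for the 75th percentile (542 bp apart), 78.5 and -132.7 bp for the 90th percentile (211.2 bp apart), and 6.75 and -11.2 percentage points for the share of wide sites (17.9 apart). Each had an exact permutation p of 0.0286, and 0.129 after Benjamini-Hochberg adjustment over 18 tests, from assignments that move single libraries and not genotypes. Control mice alone lacked Cre, so Cre and Smc3 deletion cannot be told apart in this contrast. Where Smc3 was deleted, list length and the share of top-scored peaks also differed between the genotypes.

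At 5 described sites 1 library stood far from the other 3 of its side. Its gap to the nearest, as a part of the range of its side, was 0.842 at W5 (Flt3-ITD replicate 1, 2125 bp) and 0.850 at N1 (Smc3-deleted Flt3-ITD replicate 1, 1307 bp) among libraries with Flt3-ITD. Among libraries without it, the gap was 0.842 at W1 (control replicate 2, 283 bp), 0.869 at N4 (Smc3 del/+ replicate 1, 2191 bp) and 0.953 at N6 (Smc3 del/+ replicate 1, 1996 bp). Chance flags about 1 in 20 groups, and 40 groups were examined.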

How the results depend on the processing

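Of 26 alternatives to the limma fit, 25 called 0 sites, with 806 to 2332 at an unadjusted p under 0.05. The upper 50% of each list by score called 1 site (W3). Without the variance trend the limma adjusted p was 0.093 at W2 and N6, the smallest of that fit, and 0.723 at N7. The main fit gave 0.629, 0.903 and 0.629 at these sites. The fit with the replicate number as a block called 0 sites with 1703 at an unadjusted p under 0.05, and equal numbers did not deviate together (correlations of -0.014 to 0.0094), so they are not taken as pairs. Separated sites numbered 1061 to 1158 over most settings with all libraries, 874 with sites of 1 peak, and 600 with the upper 50% by score, where fewer sites were tested. Exchanged labels give the same sides as Smc3 deletion. Their 990 sites thus repeat that result and are not another processing of the Flt3-ITD one. With 7 libraries overlap is easier to avoid, and the count was 2063 to 2359 with 1 library left out, 4890 without both Smc3-deleted Flt3-ITD libraries and 6020 without both control libraries. On the Flt3-ITD sides with all 8 libraries the exact one-sided permutation p ran from 0.0857 to 0.229, and on the exchanged sides it was 0.429. Without both control libraries it was 0.0667, the smallest that design allows. The correlation between Smc3 states was -0.0116 with quantile normalization, -0.0120 with the widest peak, -0.0163 with sites of 1 peak, -0.0374 with the upper 50% by score, -0.0122 with equal peak numbers, -0.0307 with exchanged labels and -0.00121 with the span (added after seeing the data); the cause was not tested. With the Flt3-ITD and Smc3 del/+ labels exchanged, log2 differences turned to -0.38 at W4, -0.14 at W5, 0.55 at N1, 0.33 at N3, 0.075 at N4, 0.12 at N6 and 0.12 at N7, and shrank to 0.67 at W1, 0.12 at W2, 0.090 at W3, 0.27 at W6, -0.55 at N2, -0.88 at N5 and -0.49 at N8, since other libraries are then compared. The SD of the log2 difference was 0.48 to 0.50 without single libraries, with an exact permutation p of 0.0571 to 0.200. Read depth is unknown, so its limit on width cannot be given.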
